A study of Mus musculus with 16 samples.

Results

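The genes described here are 9 members of the Hedgehog pathway, listed by symbol and taken from the 23337 genes counted in every library of a mouse tooth germ series. They are the ligand Shh, the receptor Ptch1, the coreceptors Boc and Gas1, the ligand-binding inhibitor Hhip, the signal transducer Smo and the transcription factors Gli1, Gli2 and Gli3. All 9 were present in every table and passed the filter on low counts. Poly(A) RNA was sequenced from germs of the first molar at 8 embryonic stages, each 0.5 days after the last, from ED14.5 to ED18.0 (ED, embryonic day). The series has 8 libraries labelled upper (maxillary) and 8 labelled lower (mandibular), 1 of each per stage. A library holds both first molar germs (left with right) of 1 embryo, labelled wild type, male and of the outbred CD1 strain, and the 2 libraries of a stage were labelled as 1 embryo. The stages are also described as alternating sets, the whole-day stages ED15.0, ED16.0, ED17.0 and ED18.0 (4 embryos) and the half-day stages ED14.5, ED15.5, ED16.5 and ED17.5 (4 embryos).

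Hedgehog ligands bind Ptch1, which in their absence holds Smo inactive, and Boc, Gas1 and Cdon help present the ligand to Ptch1. Active Smo changes the processing of Gli proteins, of which Gli2 acts mainly as an activator and Gli3 mainly as a repressor. Gli1, Ptch1 and Hhip are themselves transcribed in response to the signal, so that Ptch1 and Hhip feed back on it. In the tooth germ Shh is made by the dental epithelium, including the enamel knot (the signalling centre that precedes a cusp) and later the inner enamel epithelium. It acts on epithelium and mesenchyme.

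Library totals were 33146758 to 38584429 counts in labelled upper against 35918529 to 44565205 in labelled lower, and the lowest count of any of the 9 genes in a library was 1178, for Hhip. Several genes went against the labels. Pou3f3, a marker of the maxillary arch, measured 109.5 to 131.5 CPM (counts scaled to a common total per library) at the whole-day stages and 6.45 to 10.1 CPM at the half-day stages of labelled upper. In labelled lower it measured 60.1 to 86.2 CPM at the whole-day stages and 4.45 to 5.46 CPM at the half-day stages. Dlx6, a gene of the mandibular arch, ran the other way inside each label, and it was at most 4.20 CPM in every whole-day library labelled upper. Xist, expressed from the inactive X chromosome of female cells, was at 431.8 CPM or more in every library, and the 4 Y-linked genes examined had 2 counts in all. Directions below are therefore between libraries labelled upper and lower, not between jaws. Flow cell and lane were read from codes in the names of the deposited counts, not from the labels. By these codes libraries labelled upper ran on another flow cell than those labelled lower, so flow cell and tooth label cannot be told apart. Within a label the first 4 stages ran on another lane than the last 4.

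The 9 genes differed widely in how far they varied over the 16 libraries. The highest library exceeded the lowest 14.1 times for Shh, 5.33 times for Hhip and 2.40 times for Boc, but 1.31 times for Gli1 and 1.13 times for Smo. Levels were also scaled per kilobase of merged exons so that genes could be set side by side. In labelled upper Gli1 was highest with a mean of 108.4 CPM per kilobase, followed by Smo with 65.9. Ptch1 (34.1), Shh (30.7) and Gas1 (28.5) had overlapping ranges, and the ranges of Gli3 (21.6), Boc (17.8) and Gli2 (15.95) each overlapped the next, all as mean CPM per kilobase. Hhip was lowest at 4.78 CPM per kilobase. In labelled lower Shh came first with 131.7 CPM per kilobase, its range of 63.5 to 211.5 enclosing that of Gli1 (mean 93.7), and Smo (63.8) and Ptch1 (48.7) followed. Gas1 (19.7), Gli3 (13.9), Hhip (13.0), Gli2 (12.0) and Boc (10.8) were the lowest in labelled lower, each range overlapping the next.

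**Figure D1:**
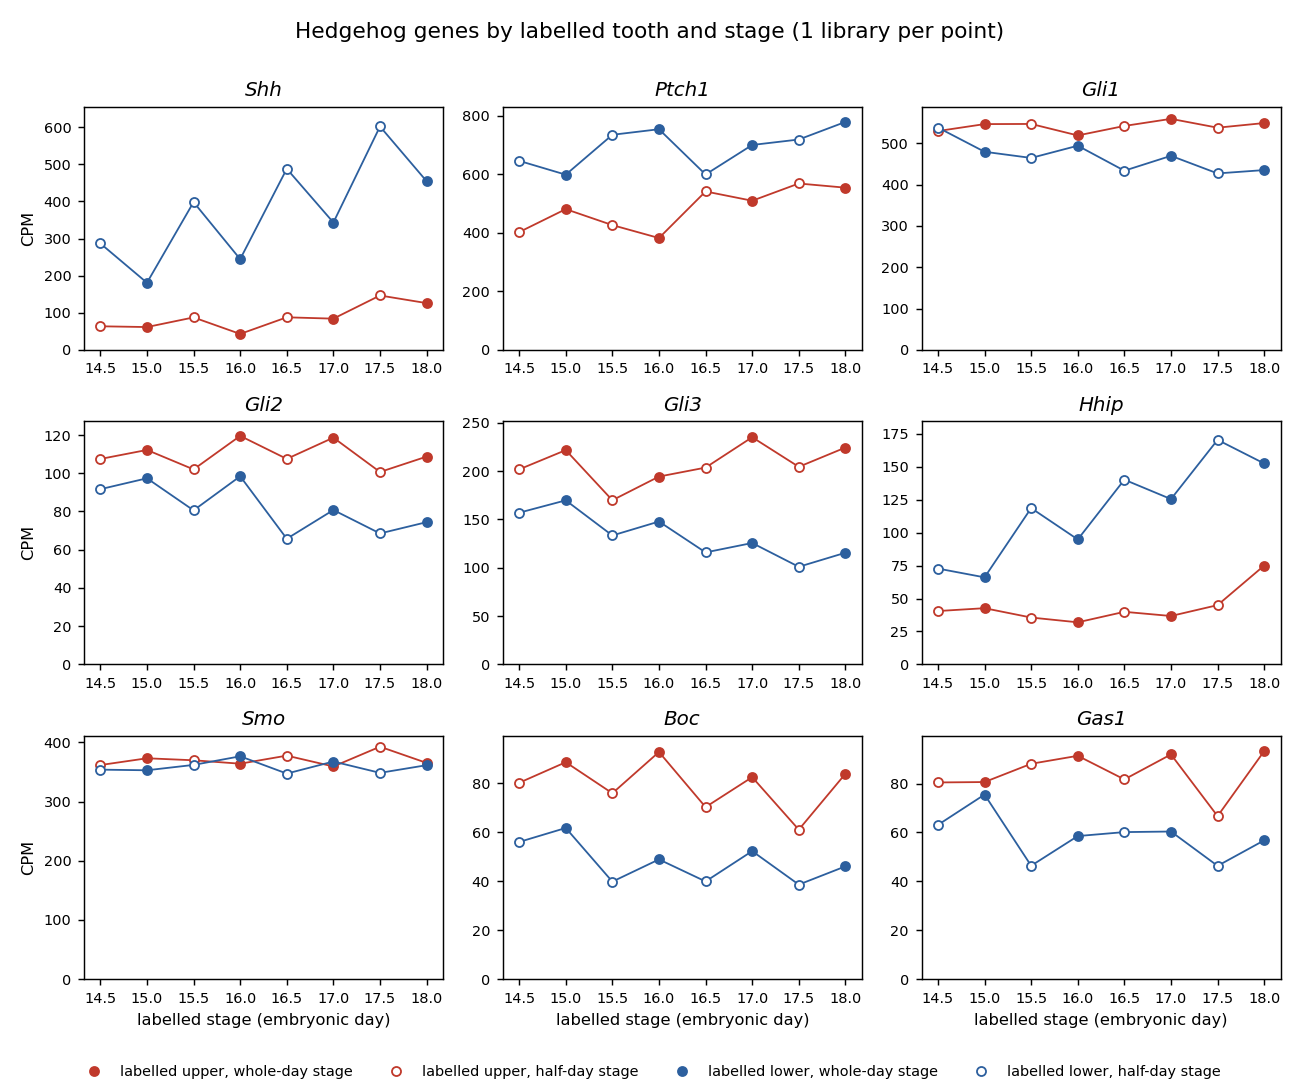
CPM of the 9 genes on the vertical axes against the labelled stage in embryonic days, 1 library per point; red is labelled upper, blue labelled lower, filled points are whole-day and open points half-day stages. Shh lies at 42.8 to 146.5 CPM in labelled upper against 180.8 to 602.2 CPM in labelled lower and zigzags between stages, whereas Smo stays between 347.3 and 392.8 CPM.

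The first comparison asked which of these genes differ between libraries labelled upper and lower over all stages. The ligand and the feedback genes Ptch1 and Hhip were lower in labelled upper, while the coreceptors Boc and Gas1 and all 3 Gli factors were higher. Of the 9 genes 5 were higher, 3 were lower and 1, Smo, did not pass an adjusted p under 0.05, against 36.2% of all 16287 tested genes passing in either direction (18.1% each way). The median log2 difference of the 9 was 0.22, against 0.01 over all tested genes. These are bulk samples, in which fewer cells of a type and less RNA per cell cannot be told apart.

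Shh (Sonic hedgehog, chromosome 5, 28456815 to 28467256, minus strand, all gene coordinates on GRCm38) is the ligand. Its libraries labelled upper had a lowest, median and highest value of 42.8, 85.7 and 146.5 CPM, against 180.8, 370.8 and 602.2 CPM in those labelled lower. Every library labelled upper lay below every library labelled lower. The mean was 87.4 ± 34.3 CPM in labelled upper against 374.8 ± 138.8 CPM in labelled lower (SD, n = 8 each), 4.29 times as high in labelled lower. The fitted log2 difference was -2.11 ± 0.20 (SE), with an adjusted p of 3.19e-06 by the edgeR quasi-likelihood F test, where p-values here and below were adjusted by Benjamini-Hochberg over all tested genes. Shh shares 446 exon bases with the antisense gene 9530036O11Rik, and the library kit does not mark strand, so reads of these bases cannot be assigned.

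Ptch1 (chromosome 13, 63508328 to 63573598, minus strand), the receptor and a target of its own pathway, had a lowest, median and highest value of 382.1, 495.2 and 568.5 CPM in labelled upper, against 598.6, 709.5 and 779.0 CPM in labelled lower. As with Shh the groups did not overlap, and the direction was the same in 8 of 8 embryos. Ptch1 averaged 483.2 ± 72.1 CPM in labelled upper against 691.4 ± 69.1 CPM in labelled lower (SD, n = 8 each). The log2 difference of -0.52 ± 0.07 passed the edgeR quasi-likelihood F test (adjusted p = 7.86e-05). Ptch1 over Shh, as a ratio of CPM, was 3.88 to 8.93 in labelled upper against 1.19 to 3.31 in labelled lower.

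Hhip (chromosome 8, 79965851 to 80058006, minus strand) encodes a membrane protein that binds and sequesters the ligand, and like Ptch1 it is a target. It had a lowest, median and highest value of 32.0, 40.2 and 75.0 CPM in labelled upper, against 66.1, 122.0 and 170.4 CPM in labelled lower. The groups overlapped only through the ED18.0 library labelled upper, which exceeded the ED14.5 and ED15.0 libraries labelled lower. Mean Hhip was 43.4 ± 13.4 CPM in labelled upper against 117.6 ± 37.3 CPM in labelled lower (SD, n = 8 each). The log2 difference was -1.42 ± 0.14, with an adjusted p of 5.64e-06 by the edgeR quasi-likelihood F test. Hhip over Shh was 0.307 to 0.747 in labelled upper against 0.254 to 0.388 in labelled lower, overlapping ranges.

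The promoter windows of the target genes Ptch1 and Hhip, which differed in the same direction as Shh, and of Gli2, which differed in the other, are printed because these genes moved together or apart. Each window is the 250 bases before the RefSeq gene start on GRCm38.p6, read 5′ to 3′ on the minus strand, and none of them overlaps an exon in GENCODE M21. The Ptch1 window is chr13:63565736-63565985, inside an intron of longer Ptch1 transcripts, that of Hhip is chr8:80058009-80058258 and that of Gli2 is chr1:119053620-119053869. Capitals mark the core ACCACCC of the sequence bound by Gli proteins and the GC box GGGCGG bound by Sp1-like factors, each on either strand (GGGTGGT and CCGCCC are the reverse complements).
Ptch1: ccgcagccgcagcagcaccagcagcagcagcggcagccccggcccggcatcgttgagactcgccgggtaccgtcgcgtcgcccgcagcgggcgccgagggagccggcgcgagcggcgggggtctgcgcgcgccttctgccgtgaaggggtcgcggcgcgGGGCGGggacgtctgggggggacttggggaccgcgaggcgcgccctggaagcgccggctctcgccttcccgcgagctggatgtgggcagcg
Hhip: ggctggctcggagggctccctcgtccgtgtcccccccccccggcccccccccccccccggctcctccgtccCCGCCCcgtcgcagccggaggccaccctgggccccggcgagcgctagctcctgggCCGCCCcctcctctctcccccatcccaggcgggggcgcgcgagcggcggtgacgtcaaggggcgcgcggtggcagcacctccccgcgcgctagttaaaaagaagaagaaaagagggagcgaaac
Gli2: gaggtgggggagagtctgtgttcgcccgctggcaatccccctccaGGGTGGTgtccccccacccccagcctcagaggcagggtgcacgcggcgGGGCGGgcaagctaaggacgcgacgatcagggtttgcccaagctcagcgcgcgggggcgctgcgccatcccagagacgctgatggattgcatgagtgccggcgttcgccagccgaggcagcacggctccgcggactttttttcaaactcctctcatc
Windows were found for 6 of the 9 genes (Gli2, Smo, Hhip, Gli3, Gas1 and Ptch1) in the RefSeq table used. The longer Gli motif GACCACCCA was in 0 of these 6 and in 0.225% of the 32851 mouse windows of the same length. Of the 6, only Gli2 held ACCACCC, at -205 from its start, and 3.92% of all windows held it. GGGCGG was in 5 of the 6 (all but Smo) and in 32.7% of all windows. A match is a description of letters, and its absence here says nothing of sites elsewhere.

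Boc (chromosome 16, 44485049 to 44558897, minus strand) encodes a cell surface protein that binds the ligand together with Ptch1. In labelled upper its lowest, median and highest value was 61.0, 81.3 and 92.7 CPM, against 38.6, 47.4 and 61.7 CPM in labelled lower. The overlap was 1 library on each side, the ED17.5 library labelled upper at 61.0 CPM and the ED15.0 library labelled lower at 61.7 CPM, and within embryos labelled upper was higher in 8 of 8. Boc averaged 79.4 ± 10.2 CPM in labelled upper against 47.9 ± 8.42 CPM in labelled lower (SD, n = 8 each), a log2 difference of 0.74 ± 0.10 (edgeR quasi-likelihood F test, adjusted p = 6.31e-05).

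Gas1 (chromosome 13, 60174405 to 60177365, minus strand), a membrane-anchored coreceptor with a single exon, had a lowest, median and highest value of 66.7, 84.9 and 93.3 CPM in labelled upper, against 46.3, 59.3 and 75.5 CPM in labelled lower. Again the ED17.5 library labelled upper and the ED15.0 library labelled lower crossed, and 8 of 8 embryos were higher in labelled upper. The means were 84.3 ± 8.85 CPM in labelled upper against 58.4 ± 9.37 CPM in labelled lower (SD, n = 8 each). The log2 difference was 0.54 ± 0.10, with an adjusted p of 0.000649 by the edgeR quasi-likelihood F test.

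Smo (chromosome 6, 29735503 to 29761365, plus strand), the membrane protein that passes the signal into the cell, showed a lowest, median and highest value of 359.3, 367.6 and 392.8 CPM in labelled upper, against 347.3, 357.7 and 376.6 CPM in labelled lower. The ranges overlapped, and labelled upper was higher in 6 of 8 embryos. With means of 370.5 ± 10.9 CPM in labelled upper against 358.8 ± 10.0 CPM in labelled lower (SD, n = 8 each), the log2 difference of 0.05 ± 0.03 did not pass (adjusted p = 0.134, edgeR quasi-likelihood F test).

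Gli1 (chromosome 10, 127329882 to 127341974, minus strand), an activator and the most used readout of the pathway, had a lowest, median and highest value of 519.3, 544.6 and 559.5 CPM in labelled upper, against 427.3, 467.4 and 538.4 CPM in labelled lower. It was higher in labelled upper in 7 of 8 embryos, the exception being ED14.5. The means of 541.6 ± 12.4 CPM in labelled upper against 468.0 ± 37.2 CPM in labelled lower (SD, n = 8 each) gave a log2 difference of 0.22 ± 0.04 (edgeR quasi-likelihood F test, adjusted p = 0.000535). Gli1 thus differed in the direction opposite to the other 2 target genes, and Gli1 over Ptch1 was 0.947 to 1.36 in labelled upper against 0.559 to 0.834 in labelled lower, without overlap. Gli1 shares 62 exon bases with Arhgap9 on the other strand. Exon bases were also shared with genes of the other strand that were not among those counted. These were 589 for Gas1 (Gm48488), 361 for Shh (Gm26894), 265 for Gli1 (Gm47200), 188 for Gli3 (Gm6556) and 175 for Hhip (Gm27820).

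Gli2 (chromosome 1, 118834132 to 119053619, minus strand), the main activator, had a lowest, median and highest value of 100.7, 108.1 and 119.5 CPM in labelled upper, against 65.7, 80.7 and 98.4 CPM in labelled lower. Gli3 (chromosome 13, 15463235 to 15730026, plus strand), the main repressor, had 169.8, 204.0 and 235.0 CPM in labelled upper, against 101.0, 129.5 and 169.7 CPM in labelled lower. For both genes every library labelled upper lay above every library labelled lower, though by a narrow margin for Gli3. The log2 difference was 0.43 ± 0.07 for Gli2 (adjusted p = 0.000537) and 0.65 ± 0.09 for Gli3 (adjusted p = 0.000106), both by the edgeR quasi-likelihood F test. In all, the label groups did not overlap for 4 of the 9 genes (Shh, Ptch1, Gli2 and Gli3), against 6.4% of all tested genes (2.89% with labelled upper above and 3.52% with it below). The 8 calls were also made in every other setting tried for this comparison and with each embryo left out.

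**Figure D2:**
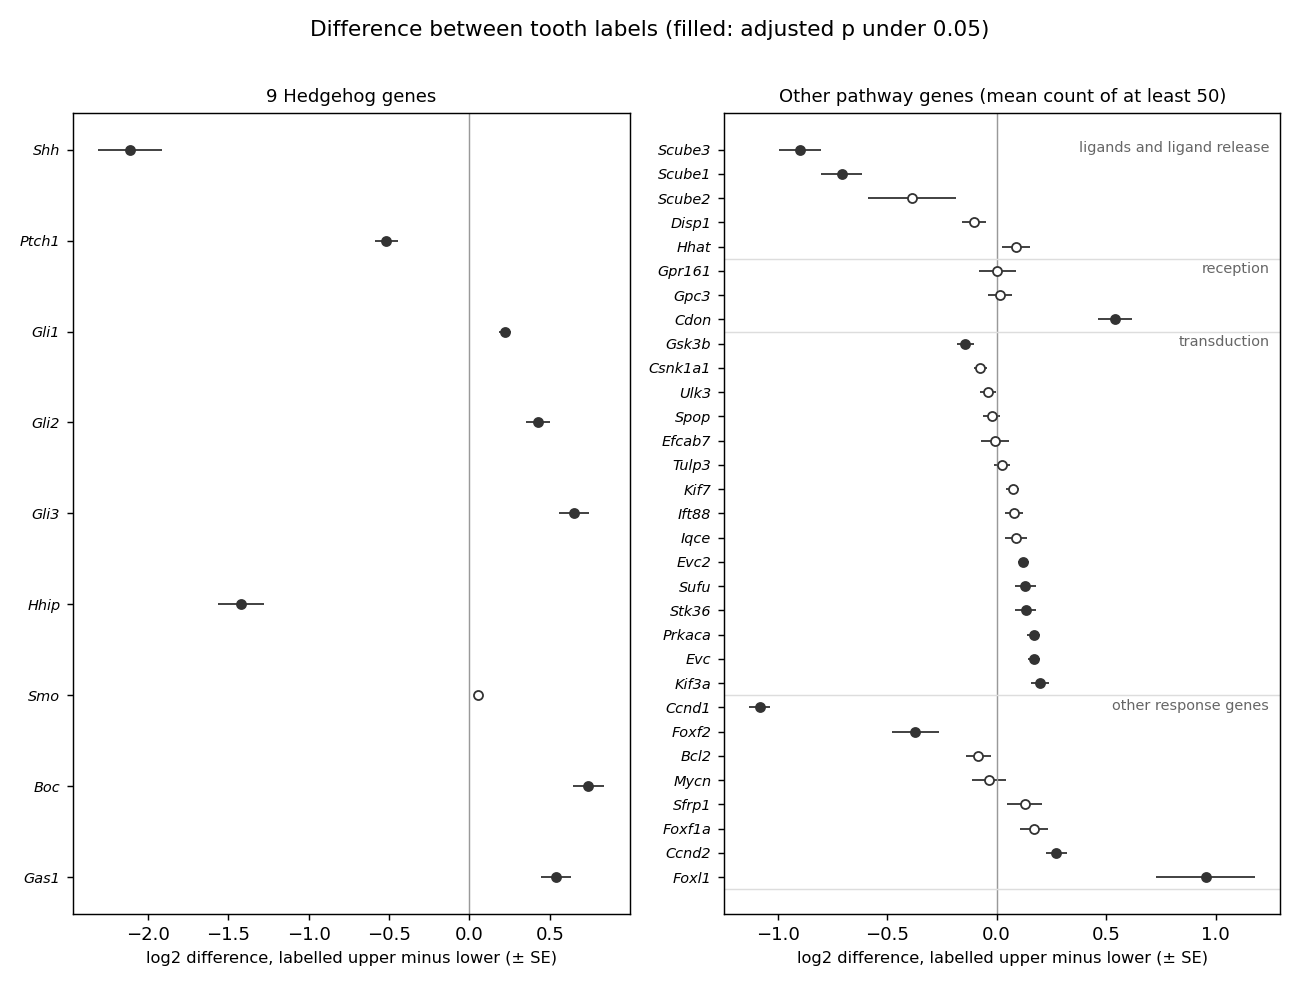
Fitted log2 difference of labelled upper minus labelled lower on the horizontal axes, with bars of ± 1 standard error, for the 9 genes (left) and for other genes of the pathway with a mean count of at least 50 (right); filled points passed an adjusted p under 0.05. Shh, Hhip and Ptch1 lie left of 0 and Boc, Gli3, Gas1, Gli2 and Gli1 to its right, and most transduction genes lie within 0.20 of 0.

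Other pathway genes were counted by role, against the 36.2% of all tested genes that passed for the tooth label (18.1% each way). Among 8 genes of ligands and ligand release, 1 was higher and 2 were lower in labelled upper: Scube3 (log2 difference -0.90 ± 0.09) and Scube1 (-0.71 ± 0.09), secreted proteins of a family that helps release the lipid-bearing ligand, were lower. The higher one, the ligand Ihh (0.84 ± 0.27), had a mean count of 27.3 and was named after its value was seen. Of the 5 genes of reception reported here, 2 were higher and 0 were lower. Cdon, a coreceptor related to Boc, was higher by 0.54 ± 0.08. The other higher one was Lrp2 (1.32 ± 0.20), with a mean count of 35.6, also named after its value was seen. Thus Cdon had the direction of Boc and Gas1.

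Transduction genes differed by smaller amounts, with 6 higher and 1 lower of 15. Kif3a, a motor subunit needed for the cilium, was higher by 0.20 ± 0.04, Evc, which binds Smo at the base of the cilium, by 0.17 ± 0.03 and Prkaca, a kinase that phosphorylates Gli proteins, by 0.17 ± 0.03, as log2 differences. Gsk3b, another such kinase, was lower at -0.14 ± 0.04. Of 8 tested genes among 9 known to respond to the signal in some tissues, 2 were higher and 2 were lower. The cell cycle gene Ccnd1 was lower at -1.08 ± 0.05 and Foxf2 at -0.37 ± 0.11, while Foxl1 was higher by 0.95 ± 0.23 and Ccnd2 by 0.27 ± 0.05. All of these passed the edgeR quasi-likelihood F test, with adjusted p between 1.09e-08 (Ccnd1) and 0.0243 (Ihh).

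Markers of the cell types in the germ were also compared between the tooth labels. Of all tested genes 36.2% passed for the label (18.1% each way). The summed CPM of 12 enamel knot markers (Fgf4, Fgf9, Msx2 and others) was 218.4 to 331.2 in labelled upper against 397.7 to 631.7 in labelled lower, and 9 of the 12 were lower and 1 was higher in labelled upper. The sum of 12 dental epithelium markers overlapped, at 2955 to 4934 CPM in labelled upper against 3804 to 5259 CPM in labelled lower, with 4 higher and 3 lower. That of 12 dental mesenchyme markers was 6199 to 9795 CPM in labelled upper against 6351 to 9176 CPM in labelled lower, with 5 higher and 3 lower. None of these 36 markers was at 0 in any library. Their part in the differences of the Hedgehog genes was not tested, but ratios can be given. Per 1000 CPM of epithelial markers Shh was 11.7 to 33.1 in labelled upper against 47.5 to 114.5 in labelled lower, without overlap. Per 1000 CPM of enamel knot markers it was 196.0 to 464.9 in labelled upper against 454.7 to 953.4 in labelled lower, overlapping by 1 library on each side. Per 1000 CPM of mesenchyme markers Boc was 8.01 to 12.9 in labelled upper against 4.9997 to 7.06 in labelled lower. On the same scale Gas1 was 8.75 to 14.2 in labelled upper against 6.004 to 8.43 in labelled lower, and Gli3 was 22.9 to 32.3 in labelled upper against 13.1 to 21.0 in labelled lower. These 3 ratios did not overlap between the labels, whereas that of Gli2 did, at 11.1 to 16.46 in labelled upper against 8.47 to 12.7 in labelled lower. The largest parts of the mesenchyme sum were Col3a1 (2321 to 4025 CPM in labelled upper) and Col1a1 (1324 to 3275 CPM). Of its other markers Prrx1, Msx1 and Vim were higher in labelled upper without overlap, and no marker was lower without overlap. The ratios thus set the genes against a sum that does not follow Prrx1, Msx1 and Vim.

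Markers of other cell types were counted against the same 36.2% of all tested genes (18.1% each way). Summed macrophage markers were 52.2 to 84.3 CPM in labelled upper against 63.0 to 132.6 CPM in labelled lower, with 5 of 7 lower. Cornifying oral epithelium markers summed to 97.3 to 511.1 CPM in labelled upper against 193.8 to 1583 CPM in labelled lower, with 5 of 7 tested lower. Markers of cartilage, a tissue with Hedgehog signals of its own, summed to 84.8 to 139.4 CPM in labelled upper against 112.4 to 171.9 CPM in labelled lower, and Col10a1 and Matn1 were at 0 in 2 libraries each, as Ivl of the cornifying list was in 6. In labelled upper 3 of 8 bone markers were higher and 1 lower, 1 of 8 endothelial markers higher and 3 lower, 1 of 8 Schwann cell and nerve markers higher and 2 lower, 1 of 8 muscle markers higher and 0 lower, and 2 of 5 tested erythroid markers higher and 0 lower. Their part was likewise not tested.

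A second comparison asked how the genes changed with stage inside each label. In labelled upper 0 of the 9 genes passed for a linear slope, against 6.13% of all tested genes (3.72% rising and 2.41% falling). In labelled lower 2 passed, 1 in each direction, against 4.11% (2.63% rising and 1.49% falling). At an unadjusted p under 0.05 there were 3 of the 9 in labelled upper (24.9% of all tested genes), against 5 in labelled lower (22.2%). In labelled lower Hhip rose by 0.36 ± 0.07 log2 units per day (adjusted p = 0.0231) and Gli3 fell by 0.17 ± 0.04 log2 units per day (adjusted p = 0.0328), by the edgeR quasi-likelihood F test. Hhip libraries labelled lower measured 72.7, 66.1, 118.6, 94.8, 140.2, 125.4, 170.4 and 152.4 CPM at ED14.5 to ED18.0, and Gli3 libraries 156.9, 169.7, 133.4, 147.8, 115.9, 125.6, 101.0 and 115.5 CPM. Both series zigzag from stage to stage about their trend. The Hhip call was lost without embryo 1, 2, 7 or 8 and the Gli3 call without embryo 1, 2, 6, 7 or 8, with adjusted p of up to 0.116 for each. With the sequencing lane as a further term neither passed (adjusted p = 0.377 for Hhip and 0.59 for Gli3). The lanes hold the first 4 and the last 4 stages of a label.

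Shh had slopes of 0.33 ± 0.10 log2 units per day in labelled upper against 0.32 ± 0.11 in labelled lower, which did not pass (adjusted p = 0.0769 and 0.125, edgeR quasi-likelihood F test). With the stage set as a further term both passed, at 0.38 ± 0.07 in labelled upper (adjusted p = 0.00959) and 0.40 ± 0.02 in labelled lower (adjusted p = 3.56e-05). With lane as a further term neither passed, at 0.17 ± 0.22 in labelled upper (adjusted p = 0.826) and 0.10 ± 0.22 in labelled lower (adjusted p = 0.870). Inside single lanes of 4 libraries the slope of log2 CPM was -0.24 per day for the early and 0.47 for the late stages of labelled upper, and 0.09 and 0.10 for those of labelled lower. Along the whole-day stages Shh libraries labelled upper measured 61.4, 42.8, 84.0 and 125.9 CPM and those labelled lower 180.8, 244.5, 343.3 and 454.7 CPM. Along the half-day stages the values were 63.5, 87.4, 87.7 and 146.5 CPM in labelled upper and 286.8, 398.3, 488.1 and 602.2 CPM in labelled lower. Within each set the value went up at every step except ED15.0 to ED16.0 in labelled upper, and the last stage was 2.05 to 2.51 times the first.

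The same fit with stage set as a term called 3 of the 9 genes in labelled upper (13.2% of all tested genes) against 6 in labelled lower (11%). In labelled upper these were Shh, Ptch1 (0.14 ± 0.04 log2 units per day, adjusted p = 0.0468) and Boc (-0.09 ± 0.02, adjusted p = 0.0464), by the edgeR quasi-likelihood F test. In labelled lower they were Shh, Hhip and Gli3 with Gli1 (-0.07 ± 0.02), Gli2 (-0.14 ± 0.03) and Boc (-0.14 ± 0.04). By the edgeR quasi-likelihood F test the adjusted p was 0.00909 for Gli2 and 0.0402 for Boc. That of Gli1, at 0.0499985, lay just under the threshold. Gas1 and Smo passed in neither label.

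For the difference of the slopes 0 of the 9 genes passed, against 1.28% of all tested genes (0.682% higher and 0.602% lower), and 2 (Gli1 and Gli3) had an unadjusted p under 0.05, against 14.2% of all tested genes. Gli3 had the smallest p, with a slope of 0.04 ± 0.04 log2 units per day in labelled upper against -0.17 ± 0.04 in labelled lower. The difference of 0.22 ± 0.06 did not pass (edgeR quasi-likelihood F test, adjusted p = 0.0877). With the embryo as a block, so that the upper and lower germs of an embryo were compared directly, the difference was 0.22 ± 0.04 and passed (adjusted p = 0.0162). DESeq2 also called it (adjusted p = 0.0159). For Shh the difference of slopes was 0.01 ± 0.17, and no difference was detectable at that error.

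Slopes of other pathway genes were counted by role as well. The share of all tested genes passing was 6.13% for labelled upper, against 4.11% for labelled lower. Of 8 ligand release genes 1 rose in labelled upper, while 1 rose and 1 fell in labelled lower. The 5 reception genes gave 0 calls in either label. Of 8 tested response genes 1 rose in each label and 1 fell in labelled upper. Scube1 rose in each label, by 0.32 ± 0.07 log2 units per day in labelled upper against 0.19 ± 0.04 in labelled lower, and its relative Scube2 fell by 0.35 ± 0.06 in labelled lower. The response gene Ccnd1 rose by 0.19 ± 0.02 in labelled upper against 0.25 ± 0.03 in labelled lower, and Foxl1 fell by 0.60 ± 0.11 in labelled upper. Of the transduction genes 1 of 15 passed in labelled upper, Spop (0.08 ± 0.02), an adaptor for the breakdown of Gli proteins, and 0 in labelled lower. These passed the edgeR quasi-likelihood F test with adjusted p between 0.00426 and 0.0451, and with lane as a further term 0 of them passed. The Spop call was lost without embryo 1, 2, 3, 4, 5 or 8 (adjusted p of up to 0.203). That of Scube1 was lost without embryo 1, 3, 6 or 8 in labelled upper and without embryo 1, 2, 6, 7 or 8 in labelled lower, with adjusted p of up to 0.162 and 0.136. In labelled lower the Scube2 call was lost without embryo 1 or 8 and the Ccnd1 call without embryo 1.

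The third comparison set whole-day against half-day stages, the alternation seen in the jaw genes above. Shh was lower at the whole-day stages, and Boc and Gli2 were higher. Thus 2 of the 9 genes were higher, 1 was lower and 6 did not pass, against 12.5% of all tested genes passing (7.04% higher and 5.5% lower). The fit takes the 16 libraries as separate samples, although the sets differ between embryos and each embryo gave 2 libraries. With the counts of its 2 libraries summed, so that each embryo was 1 sample (n = 8), 3 of the 9 genes were higher and 2 were lower, against 8.76% of all tested genes higher and 6.72% lower. These were Shh (-0.71 ± 0.05), Boc (0.32 ± 0.04) and Gli2 (0.20 ± 0.04, adjusted p = 0.0107) with Gli3 (0.20 ± 0.03, adjusted p = 0.00521) and Hhip (-0.29 ± 0.03, adjusted p = 0.00129), by the edgeR quasi-likelihood F test. In such a sum the label with the higher count weighs more. Each lane held 2 whole-day and 2 half-day libraries, and what the alternation stands for is not given in the labels.

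For Shh the zigzag is visible in the values along the sets given above. At 7 of 7 steps between neighbouring stages, in each label, the whole-day library lay below the half-day library, a pattern shared by 2.73% of all tested genes. The sets overlapped in CPM in each label. The mean was 78.5 ± 35.8 CPM at the whole-day and 96.3 ± 35.4 CPM at the half-day stages of labelled upper, and 305.8 ± 119.6 CPM at the whole-day and 443.9 ± 133.9 CPM at the half-day stages of labelled lower (SD, n = 4 each). The log2 difference over both labels was -0.66 ± 0.10 (adjusted p = 0.000884), with -0.53 ± 0.14 in labelled upper (adjusted p = 0.0348) and -0.79 ± 0.13 in labelled lower (adjusted p = 0.00643), by the edgeR quasi-likelihood F test. Within single lanes, with 2 libraries a set, whole-day minus half-day was -0.54 for the early and -0.14 for the late stages of labelled upper, and -0.68 and -0.46 for those of labelled lower.

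Boc measured 88.6, 92.7, 82.5 and 83.8 CPM at the whole-day and 80.2, 75.9, 70.2 and 61.0 CPM at the half-day stages of labelled upper, which did not overlap. In labelled lower it measured 61.7, 48.9, 52.3 and 46.0 CPM at the whole-day and 56.0, 39.8, 39.9 and 38.6 CPM at the half-day stages, which overlapped through the ED14.5 library. The whole-day library was the higher at 7 of 7 steps in each label, as for 4.53% of all tested genes. The log2 difference was 0.34 ± 0.05 over both labels (adjusted p = 0.000937), 0.35 ± 0.07 in labelled upper (adjusted p = 0.0145) and 0.33 ± 0.08 in labelled lower (adjusted p = 0.0271), by the edgeR quasi-likelihood F test. In each of the 4 lanes the difference of log2 CPM had the same sign, at 0.22 and 0.34 in labelled upper and 0.22 and 0.32 in labelled lower.

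Gli2 had the same 7 of 7 steps in each label as Boc. It measured 112.2, 119.5, 118.6 and 108.7 CPM at the whole-day and 107.5, 102.0, 107.5 and 100.7 CPM at the half-day stages of labelled upper, without overlap, and 97.4, 98.4, 80.8 and 74.4 CPM at the whole-day and 91.7, 80.6, 65.7 and 68.5 CPM at the half-day stages of labelled lower, which overlapped. The log2 difference of 0.21 ± 0.06 passed (edgeR quasi-likelihood F test, adjusted p = 0.0297), but the call was lost when embryo 3, 4, 5, 6, 7 or 8 was left out, with adjusted p of up to 0.169. In neither label alone did Gli2 pass (adjusted p = 0.208 in labelled upper and 0.144 in labelled lower). Gli3 (0.21 ± 0.08, adjusted p = 0.108) and Gas1 (0.23 ± 0.08, adjusted p = 0.0798) had log2 differences of like size that did not pass. The whole-day library of Gli3 was the higher at 6 of 7 steps in labelled upper, against 7 of 7 in labelled lower, and that of Gas1 at 6 of 7 in each. With lane as a further term both passed (adjusted p = 0.000265 for Gli3 and 0.0497 for Gas1, edgeR quasi-likelihood F test).

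The target genes did not pass for the stage sets over the 16 libraries. The log2 difference was -0.03 ± 0.07 for Ptch1, 0.03 ± 0.04 for Gli1 and -0.21 ± 0.14 for Hhip, with adjusted p of 0.824, 0.653 and 0.354 by the edgeR quasi-likelihood F test. Hhip in labelled lower nevertheless lay lower at the whole-day stage at 7 of 7 steps (-0.37 ± 0.18, adjusted p = 0.334), and at 4 of 7 in labelled upper. Smo differed by -0.01 ± 0.03.

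**Figure D3:**
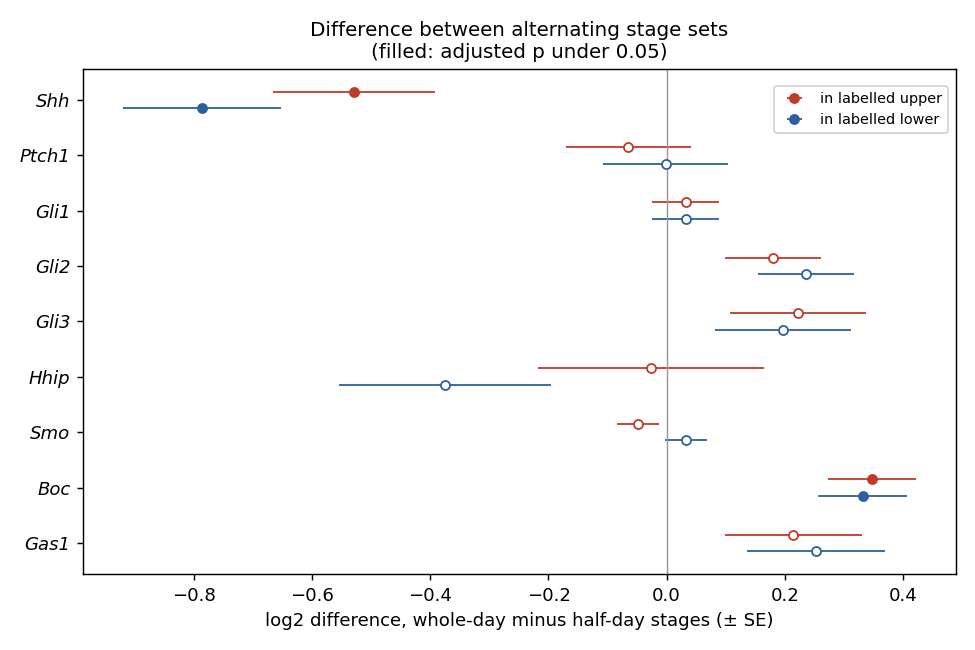
Fitted log2 difference of whole-day minus half-day stages on the horizontal axis, with bars of ± 1 standard error, for each of the 9 genes in labelled upper (red) and labelled lower (blue); filled points passed an adjusted p under 0.05. Shh lies left of 0 (-0.53 and -0.79) and Boc right of it (0.35 and 0.33) in both labels.

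Inside a label 2 of the 9 genes passed, Shh and Boc, 1 higher and 1 lower in each. All tested genes passed at 7.02% in labelled upper (4.46% higher and 2.55% lower), against 4.13% in labelled lower (2.38% higher and 1.75% lower). In labelled upper the Shh call was lost without any of embryos 3 to 8 and the Boc call without embryo 4, 6, 7 or 8, with adjusted p of up to 0.204 and 0.0838. In labelled lower the Shh call was lost without embryo 3 (adjusted p = 0.0585) and the Boc call without embryo 2, 3, 5, 6, 7 or 8 (adjusted p of up to 0.155). In both labels at once 0 of the 9 had sets without overlap, against 1.8% of all tested genes with whole-day above and 0.528% with it below. For the difference between labels 0 of the 9 and 0 of all 16287 genes passed the edgeR quasi-likelihood F test, with 964 of all genes and 0 of the 9 at an unadjusted p under 0.05 (5.92% of all tested genes), and DESeq2 called 82 genes higher and 28 lower.

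Markers of epithelium and mesenchyme alternated with the same stages. The summed epithelial markers were 2955 to 3803 CPM at the whole-day and 3782 to 4934 CPM at the half-day stages of labelled upper, and 3804 to 4309 CPM at the whole-day and 4617 to 5259 CPM at the half-day stages of labelled lower, with 8 of 12 markers lower at the whole-day stages. Mesenchyme markers summed to 6867 to 9795 CPM at the whole-day and 6199 to 7616 CPM at the half-day stages of labelled upper, and 7763 to 9176 CPM at the whole-day and 6351 to 7932 CPM at the half-day stages of labelled lower, with 6 of 12 higher. Of the enamel knot markers 2 of 12 were lower. Of all tested genes 7.04% were higher and 5.5% lower at the whole-day stages. Shh, an epithelial gene, thus had the direction of the epithelial markers, and Boc and Gli2 that of the mesenchyme markers, whose part in the result was not tested.

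Set against those sums, the stage sets of Shh and Boc overlapped in each label, as those of Shh did in CPM. Because Shh rose along the sets, an overlap does not show whether its zigzag remained. Library by library, each whole-day ratio of Shh to epithelial markers in labelled lower lay below those of its neighbouring stages. In labelled upper only that of ED16.0 did. Shh per 1000 CPM of epithelial markers was 11.7 to 33.1 at the whole-day and 16.8 to 29.7 at the half-day stages of labelled upper, with means of 22.4 ± 8.83 at the whole-day and 20.9 ± 5.95 at the half-day stages (SD, n = 4 each). In labelled lower it was 47.5 to 105.5 at the whole-day and 59.8 to 114.5 at the half-day stages, with means of 75.9 ± 25.7 at the whole-day and 88.9 ± 22.7 at the half-day stages. Per 1000 CPM of enamel knot markers, mean Shh in labelled upper was 314.4 ± 115.3 at the whole-day and 332.4 ± 74.5 at the half-day stages. The means in labelled lower were 606.4 ± 137.0 at the whole-day and 822.7 ± 124.8 at the half-day stages. Boc per 1000 CPM of mesenchyme markers averaged 10.6 ± 2.16 at the whole-day and 10.3 ± 1.98 at the half-day stages of labelled upper, and 6.07 ± 0.625 at the whole-day and 5.98 ± 0.887 at the half-day stages of labelled lower.

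**Figure D4:**
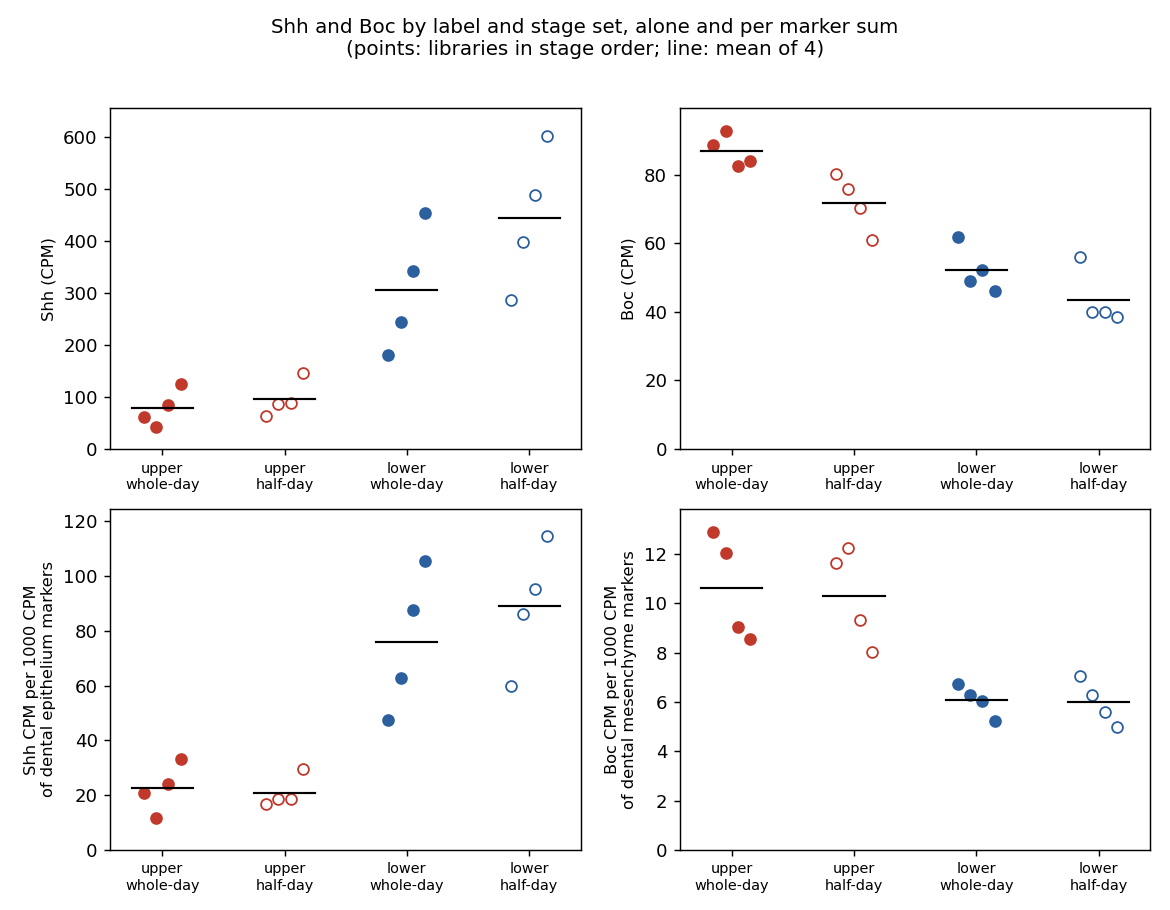
Shh (left) and Boc (right) on the vertical axes, as CPM (top) and as CPM per 1000 CPM of summed epithelial or mesenchyme markers (bottom), by label and stage set; points are libraries in order of stage and lines are means of 4. The step between whole-day and half-day Boc seen in the top row (means 86.9 and 71.8 CPM in labelled upper) is between means of 10.6 and 10.3 in the bottom row, while labelled upper and lower stay apart.

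Other pathway genes were counted for the stage sets too, where 12.5% of all tested genes passed (7.04% higher and 5.5% lower). Of 8 ligand release genes 2 were higher at the whole-day stages and 2 were lower, and 0 of 5 reception genes passed. Of 15 transduction genes 1 was higher and 1 lower, and 2 of 8 response genes were higher. Scube3 (-0.30 ± 0.06) and Disp1 (-0.16 ± 0.04), which exports the ligand, were lower as log2 differences, with Shh. Ihh and Dhh, the other Hedgehog ligands, were the higher ones (0.75 ± 0.20 and 1.35 ± 0.39), at mean counts of 27.3 and 19.6, and were named after their values were seen. Foxf2 (0.35 ± 0.07) and Sfrp1 (0.27 ± 0.05), mesenchymal genes, and Iqce (0.16 ± 0.03), a ciliary partner of Evc, were higher, and Csnk1a1 (-0.08 ± 0.02), a kinase of the pathway, was lower. Their adjusted p lay between 0.00193 and 0.0477 by the edgeR quasi-likelihood F test. The Csnk1a1 call was lost without any one of the 8 embryos (adjusted p of up to 0.348), with library totals, with no filter, with lane and with the embryo sums. That of Disp1 was lost without embryo 2, 3, 4, 6, 7 or 8 (adjusted p of up to 0.148) and that of Scube3 without embryo 3 or 6 (up to 0.0859).

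Across the 16 libraries 8 of the 9 genes fell into opposed groups, given as Pearson's r of log2 CPM and as a description. Such an r takes in the difference between the tooth labels, and with it that between flow cells. Smo was in neither, at -0.42 with Shh and 0.35 with Boc. Shh correlated at 0.95 with Hhip and 0.90 with Ptch1, and at -0.96 with Boc and -0.93 with Gli2. Inside the labels (8 libraries each) the relation of Shh with Boc stayed negative, at -0.74 in labelled upper against -0.87 in labelled lower. That of Shh with Gli1 was 0.53 in labelled upper against -0.73 in labelled lower, and -0.83 over all libraries. Shh with Ptch1 was 0.83 in labelled upper against 0.32 in labelled lower. Inside labelled upper Gli3 was not opposed, at 0.16 with Shh, 0.53 with Ptch1 and 0.45 with Hhip. The same pairs were at -0.95, -0.37 and -0.98 in labelled lower. Hhip in labelled upper was at -0.08 with Boc and 0.02 with Gas1. Gli2 stayed negative there, at -0.66 with Shh, -0.31 with Ptch1 and -0.27 with Hhip.

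The 5 genes most like each of the 9, by Pearson's r over the 16 libraries among 12473 genes with a symbol and a mean count of at least 50, held no other listed member of the pathway. Those nearest Shh were Arrb1 (0.985), Cdk18 (0.984), Bambi (0.984), Epas1 (0.980) and Rnf144b (0.979). Cdk18 was also among the 5 nearest Hhip (0.967), after Myo19 (0.972) and Atxn1 (0.971). Boc was closest to Loxl1 (0.987) and Shc2 (0.981), and Shc2 was also among the 5 nearest Gas1 (0.951). Bmp4, a signal of the germ, was nearest Gli1 (0.963), Lrrc8c nearest Ptch1 (0.963), Kcnip3 nearest Gli2 (0.962) and Ryr2 nearest Gli3 (0.968). Smo had no gene above 0.825 (Ftsjd2).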

How the data were processed

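For each of the 16 libraries the authors deposited a table of unnormalized counts, listed by gene symbol. The submitters' processing notes name Bowtie2 (2.0.2), TopHat2 (2.0.6), HTSeq (0.5.3p9) and the build mm10. Per the labels' protocols, the poly(A) libraries were prepared with the TruSeq V2 kit, whose reads carry no strand, and sequenced as pairs of 100 bp. Annotation, counting strand and the counted unit (read or pair) are not stated. The 5 summary lines of each table stayed out of totals and tests, with 12.6% to 15.1% on no feature and 0.955% to 1.14% ambiguous. All 120 pairs of libraries differed.

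CPM were computed from the gene totals. Genes reaching 0.269 CPM (10 counts at the median depth) in at least 2 libraries were tested (16287 genes), with edgeR 4.0.16 in R 4.3.3 (TMM, quasi-likelihood F test, Benjamini-Hochberg adjustment over all tested genes, threshold 0.05). The tooth label, the stage sets and the slope difference were fitted in all 16 libraries, with stage as a natural spline (3 degrees of freedom), and slopes in the 8 libraries of a label. The standard error is the log2 value divided by the square root of F. Correlations used log2 CPM with a prior count of 2. The tests were also run on simulated counts, with libraries independent and no lane effect or deviation shared within an embryo. Such counts do not check the tests for those features. Gene coordinates and exon lengths came from GENCODE M21 (GRCm38).

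The 9 genes were all described. Of each further pathway list up to 4 genes per comparison were named, those past the threshold with the largest fold and a mean count of at least 50. The reception list is not complete, since a gene of it is not reported here. The members, lists and stage sets were chosen with earlier results of these data known. Stage, embryo and individual are the same factor, with 1 library per label and stage, so p-values measure how libraries scatter about a fitted curve. For slopes inside a label each library is 1 embryo. The main fits over all 16 libraries take the 2 libraries of an embryo as separate samples. The labels pair the upper and lower germs of an embryo, and in every embryo the deviations of the pair from the fitted means correlated (0.149 to 0.405 over 16287 genes). Those means held no stage set term, so an alternation shared by both labels can give such a correlation. It is therefore no check of the pairing. Alternatives were DESeq2 1.42.0 and other size factors, no filter on low counts, the embryo as a block, stage set or lane as a further term, leaving out each embryo and, for the stage sets and chosen after seeing the data, the 2 libraries of an embryo summed.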

Additional observations from a re-analysis of the deposited data

Results flagged for a closer look

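In 4 of 54 groups of libraries 1 value lay apart from the rest of its group by Dixon's test at the 95% level, which chance does in about 1 in 20 groups. Gli3 in the half-day libraries labelled upper was lowest at ED15.5 with 169.8 CPM, and the gap to the next library was 0.923 of the range. Hhip among all 8 libraries labelled upper was highest at ED18.0 with 75.0 CPM, a gap of 0.697 of the range. Boc in the half-day libraries labelled lower was highest at ED14.5 with 56.0 CPM, a gap of 0.926 of the range. Gas1 in the whole-day libraries labelled upper was lowest at ED15.0 with 80.6 CPM, a gap of 0.848 of the range. Why these libraries stand apart was not tested.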

How the results depend on the processing

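The 8 calls between the tooth labels kept their direction and stayed past the threshold under every alternative tried. All-gene counts without 1 embryo were 2288 to 2645 higher and 2498 to 2889 lower, with 8 members each time. Slopes depended most on the settings, and the cause was not tested. In labelled upper DESeq2 called 1161 genes rising, 890 falling and 1 member, the stage set term 1251, 901 and 3, and the lane term 1, 1 and 0. Without 1 embryo the counts were 137 to 747, 55 to 654 and 0 to 2, where Shh and Ptch1 passed without embryo 4. In labelled lower DESeq2 called 1014 and 785, the stage set term 1115, 674 and 6 members, and the lane term 16, 3 and 0. Without 1 embryo the counts were 30 to 473, 4 to 285 and 0 to 2. For the slope difference DESeq2 gave 305, 290 and 1, the embryo block 279, 196 and 1, the stage set term 373, 300 and 1, and leaving out 1 embryo 8 to 71, 6 to 68 and 0. For the stage sets the lane term called 5 members (14.2% of all genes), the counts of both labels summed per embryo, an alternative chosen after seeing the data, also 5, and leaving out 1 embryo gave 447 to 1003, 270 to 796 and 2 to 3. For the stage sets in labelled upper alone DESeq2 called 704 lower, with 260 to 768, 108 to 478 and 0 to 2 without 1 embryo. In labelled lower alone it called 596 higher and 466 lower, with 115 to 299, 68 to 217 and 0 to 2. For the difference between labels it called 82 and 28, with 0 to 23, 0 to 5 and 0. Directions turned only for values that had not passed. With lane, upper slopes turned for Ptch1 (-0.0132), Gli1 (-0.00818), Gli2 (0.0156), Gli3 (-0.0327) and Boc (0.0794), and the lower slope for Gli2 (0.0369). With stage set the upper Gas1 slope (-0.0149) and the Shh slope difference (-0.00014) turned, and with no filter the Smo slope difference (-0.0018). Lower Ptch1 between stage sets became 0.0064 with library totals and 0.0032 with no filter, and the label difference of Gli1 0.000175 with other size factors and 0.000171 with DESeq2. Without 1 embryo, some values that had not passed crossed 0. Upper slopes ranged from -0.0184 to 0.0128 for Gli2, -0.00477 to 0.0178 for Smo and -0.0355 to 0.0560 for Gas1, and slope differences from -0.0502 to 0.0867 for Shh and -0.0113 to 0.0170 for Smo. The stage set difference ranged from -0.0165 to 0.00636 for Smo, in labelled upper from -0.126 to 0.0139 for Ptch1 and -0.160 to 0.0893 for Hhip, and in labelled lower from -0.0671 to 0.0742 for Ptch1. Its difference between labels ranged from -0.163 to 0.0700 for Ptch1, -0.0766 to 0.0449 for Gli1, -0.130 to 0.0281 for Gli2, -0.0702 to 0.145 for Gli3, -0.0561 to 0.0919 for Boc and -0.112 to 0.106 for Gas1. The embryo block changed no other call of the 9 genes. Depth did not limit them, each with 1178 or more counts per library.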
